A study of Rattus norvegicus with 2 samples.

Results

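The genes described here build cholesterol, take it up, store it and send it out of the cell. They are 32 genes chosen by symbol: 18 enzymes of the synthesis pathway, 4 genes of sterol-responsive control (SREBP regulation), 5 of uptake, lysosomal release and sterol transport, 1 of esterification and 4 of efflux and its control by the liver X receptors (LXR). All 32 were found among the 17455 genes of the deposited table. Some further genes of the pathway are not analysed here.

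RNA was sequenced from rat oligodendrocyte precursor cells (OPCs), glial progenitors that give rise to the myelin-forming oligodendrocytes, labelled wild type. One sample had been transfected with a vector, labelled control, and the other with Slit1, which encodes a secreted ligand of the Robo receptors. Both received their construct with a Lonza transfection kit. The series asks what Slit1 overexpression does during OPC differentiation. The sources used here do not give the age of the rats, the number of animals pooled or the time from transfection to harvest. Each group had 1 library (18817462 estimated counts in vector and 18998770 in Slit1), so no difference below has a replicate check and no p-value was computed.

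Cholesterol is a main lipid of myelin, and in the brain it is made locally because lipoproteins of the blood do not cross the blood-brain barrier. In the mevalonate arm of synthesis, acetyl-CoA is joined and reduced to mevalonate, which is phosphorylated, decarboxylated and linked into farnesyl diphosphate. In the second arm squalene is made, oxidised, folded into lanosterol and trimmed to cholesterol. When sterols are low, the escort protein SCAP carries the transcription factor SREBP2 out of the endoplasmic reticulum, after which it activates the genes of synthesis and uptake, and INSIG proteins hold SCAP back when sterols are plentiful. When oxysterols accumulate, LXR activates the exporters.

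Values are in TPM, a transcript abundance that is scaled for gene length and to an equal total in each library. The main difference is log2(TPM + 1) in Slit1 minus that in vector. It was taken over 13175 genes whose mean level reached 1 TPM, and all 32 genes passed that floor. Adding 1 makes the change of scarce genes look smaller than it is. Beside the ratio of TPM of a gene stands its 95% counting interval, exact for 2 Poisson counts by the Clopper-Pearson method. For a summed level the interval of the pooled counts was moved to the ratio of the summed TPM. It is only approximate there, because the genes of a sum differ in length. Such an interval covers counting error only and says nothing of the spread between cultures.

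The level of Slit1 itself was 1.70 TPM in the vector library against 229.7 TPM in the Slit1 library (ratio 135, counting interval 107 to 173); a table per gene does not tell transcripts of the construct from those of the chromosome. Of 5 OPC markers 1 was at least 1.5-fold higher in Slit1, Sox10, a factor of the whole lineage (71.4 and 218 TPM). Pdgfra measured 40.3 and 41.4 TPM, Cspg4 10.1 and 10.3 TPM, Olig2 171 and 178 TPM and Olig1 730 and 686 TPM (interval of the Olig1 ratio 0.917 to 0.963). The cultures also carried astrocyte transcripts at high levels: the 8 astrocyte markers summed to 9446 TPM in vector and 10450 TPM in Slit1. The astrocyte filament gene Gfap alone measured 4694 and 6130 TPM. Of these 8 markers 2 were at least 1.5-fold lower in Slit1, the glutamate transporter gene Slc1a2 (215 and 94.1 TPM) and the connexin gene Gja1 (506 and 296 TPM). All 10 markers of newly formed and myelinating oligodendrocytes were at least 1.5-fold higher in Slit1, and their sum was 1292 TPM in vector and 5010 TPM in Slit1. The 6 neuronal markers summed to 171 and 175 TPM, mostly from Map2 (108 and 101 TPM) and Tubb3 (33.6 and 46.5 TPM). Their median log2 difference was -0.16. Of 8 microglial markers 5 were analysed, and none was above 0.68 TPM. Both astrocytes and oligodendrocytes make cholesterol. The part of these marker differences in the values below was not tested, and in bulk RNA fewer cells of a type and less RNA per cell cannot be told apart.

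None of the 32 genes differed by 1.5-fold or more between the libraries. Among all tested genes 3.72% were higher in Slit1 by that much and 4.83% lower. The differences were small, and they were uneven within roles as well as between them. A smaller limit was used as well, 25% higher or the same step downward, 20% lower, on the TPM + 1 scale. It was passed upward by 7 of the 18 synthesis enzymes, against 10.7% of all tested genes, and downward by 2, against 17.9%. Upward these were 5 of the 7 enzymes of the mevalonate arm and 2 of the 11 of the second arm, and downward 1 of each. Of the 14 genes of control, uptake, storage and efflux, 0 passed it upward and 3 downward. The median log2 difference was 0.28 over the synthesis enzymes, -0.01 over the other 14 genes and -0.05 over all tested genes. The difference between the synthesis median and that of the other 14 was 0.29, and it lay between 0.19 and 0.30 under the 10 other settings tried. Centring on the median gene and dropping the floor, both among those settings, could not change it. The median does not show how uneven the synthesis enzymes were: the 3 most abundant by mean level (Hmgcs1, Msmo1 and Cyp51) were below 0, and 13 of the 18 were above 0.

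**Figure D1:**
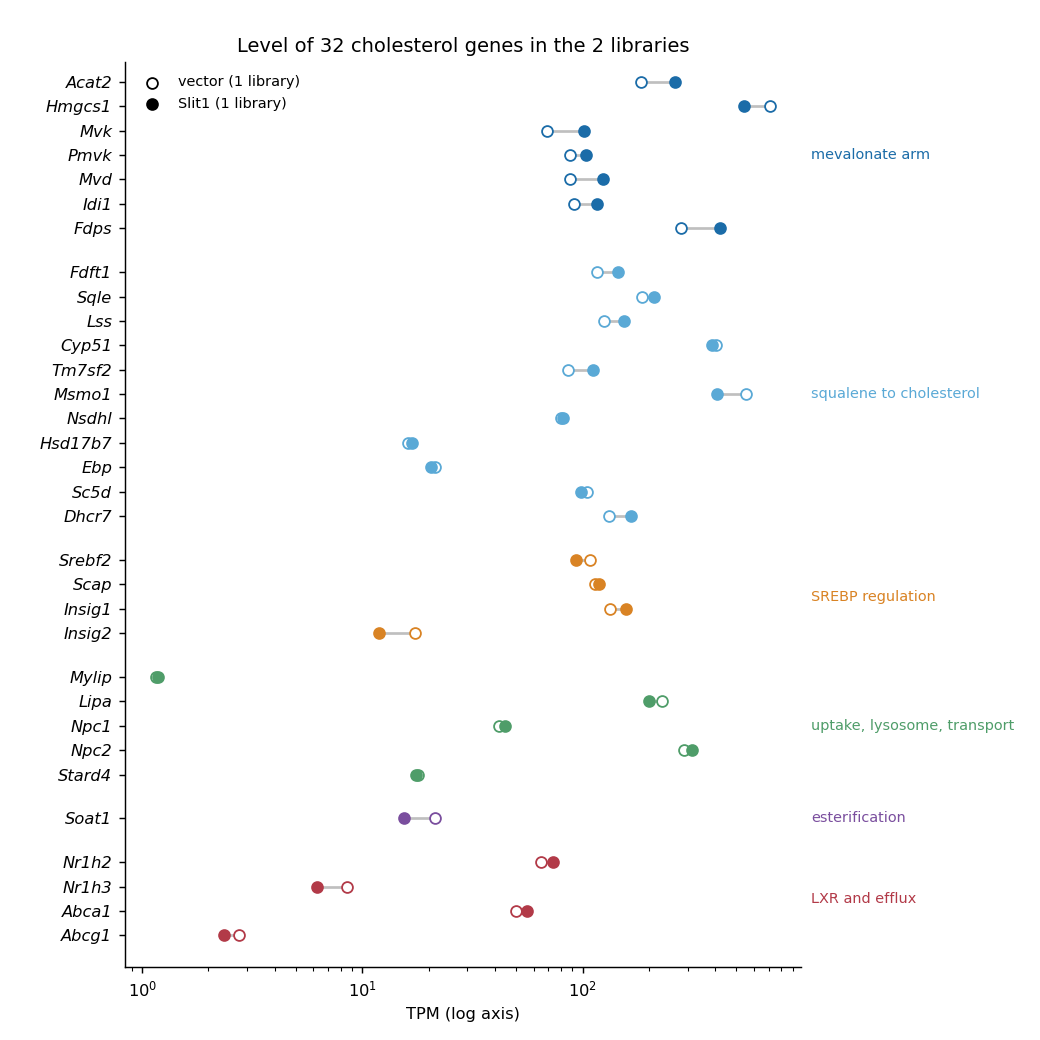
TPM of each of the 32 genes on a log axis in the vector library (open circle) and the Slit1 library (filled circle), 1 library each, coloured by role. Levels run from about 1.15 TPM (Mylip in vector) to 711 TPM (Hmgcs1 in vector), and most pairs of circles lie close together.

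The mevalonate arm was higher in Slit1 at 6 of the 7 enzymes analysed, with a median log2 difference of 0.50. Fdps (NCBI gene 83791) encodes farnesyl diphosphate synthase, the branch point to sterols, ubiquinone and protein prenylation. Its level was 281 TPM in vector against 421 TPM in Slit1 (ratio 1.498, interval 1.43 to 1.57), and 3.79% of all tested genes had a difference as high. Mvk, mevalonate kinase, measured 68.9 and 101.9 TPM (ratio 1.48, interval 1.37 to 1.60). Acat2, the cytosolic thiolase that joins acetyl-CoA at the head of the pathway, measured 184 and 264 TPM (ratio 1.43, interval 1.369 to 1.5001). These 3 enzymes and Mvd were the 4 highest of the 32 genes. Mvd, which decarboxylates the diphosphate to the isoprene unit, measured 87.5 and 124 TPM (ratio 1.42, interval 1.32 to 1.53). Idi1, the isomerase of that unit, measured 91.1 and 116 TPM (ratio 1.28, interval 1.204 to 1.355). Pmvk, which adds the phosphate after Mvk, measured 87.4 and 104 TPM (ratio 1.19, interval 1.08 to 1.32), below the limit of 25%.

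Hmgcs1 (NCBI gene 29637) stood against the rest of its arm. It encodes the cytosolic synthase that makes HMG-CoA, the substrate of the rate-limiting reductase, and it was the most abundant of the 18 enzymes in both libraries. Its level was 711 TPM in vector, rank 172 among the 17455 genes, and 544 TPM in Slit1, rank 251. The level in Slit1 was thus 1.31-fold lower (interval 1.28 to 1.34). The ratio of Fdps to Hmgcs1 was 0.396 in vector and 0.775 in Slit1. Without Hmgcs1, which was singled out after its value was seen, the other 6 mevalonate enzymes summed to 800 TPM in vector against 1132 TPM in Slit1, a ratio of 1.41. The whole arm of 7 summed to 1512 and 1676 TPM, a ratio of 1.11 (interval 1.09 to 1.13). These sums were taken in TPM only, and counts not scaled for length weigh the genes differently. Hmgcs1 had 19949 counts in vector and 15826 in Slit1, and Fdps had 2971 and 4633. Whether the ratio of the arm holds on another scale was not tested.

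The squalene to cholesterol arm was more mixed. Of its 11 enzymes 7 were above 0 and 4 below, and the median log2 difference was 0.06. The arm summed to 1820 TPM in vector against 1801 TPM in Slit1, a ratio of 0.989 (interval 0.975 to 1.003). This sum too was taken in TPM only, so the contrast between the arm totals was not tested on another scale. Over all tested genes 43.7% were above 0 and 56% below. The 2 enzymes at least 25% higher were Tm7sf2 and Dhcr7. Tm7sf2, a sterol reductase, measured 85.7 and 112 TPM (ratio 1.31, interval 1.205 to 1.418). Dhcr7, which makes cholesterol in the last step of one branch, measured 132 and 165 TPM (ratio 1.255, interval 1.19 to 1.32). Dhcr7 lay just inside the limit of 25%, at a log2 difference of 0.33, and Fdft1 just outside, at 0.31.

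The enzymes at the entry of this arm were all higher by small steps. Fdft1, squalene synthase, commits farnesyl diphosphate to sterols and measured 117 and 146 TPM (ratio 1.24, interval 1.19 to 1.30). Sqle, which oxidises squalene, measured 185 and 210 TPM (ratio 1.13, interval 1.08 to 1.19). Lss, which folds the product into lanosterol, measured 125 and 155 TPM (ratio 1.24, interval 1.19 to 1.29). After lanosterol the pattern broke.

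Msmo1 (NCBI gene 140910), a sterol oxidase that acts after Cyp51 in the removal of methyl groups from the sterol ring, was the lowest of the 18 enzymes. Its level was 550 TPM in vector against 409 TPM in Slit1, 1.35-fold lower (interval 1.30 to 1.39). Its partners in that later demethylation differed by less: Nsdhl measured 79.5 and 81.2 TPM (interval of the ratio 0.951 to 1.10) and Hsd17b7 measured 16.1 and 16.8 TPM (interval 0.924 to 1.17). Cyp51, the cytochrome that demethylates lanosterol, measured 404 and 387 TPM (ratio 0.958, interval 0.932 to 0.985). Ebp, a sterol isomerase, measured 21.4 and 20.5 TPM (interval 0.778 to 1.18). The desaturase gene Sc5d measured 104 and 98.3 TPM (ratio 0.941, interval 0.896 to 0.988), and it was slightly above 0 in CPM, the count scaled to the library total, with or without the trimmed-mean (TMM) factors of edgeR. The intervals of Nsdhl, Hsd17b7 and Ebp included 1.

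**Figure D2:**
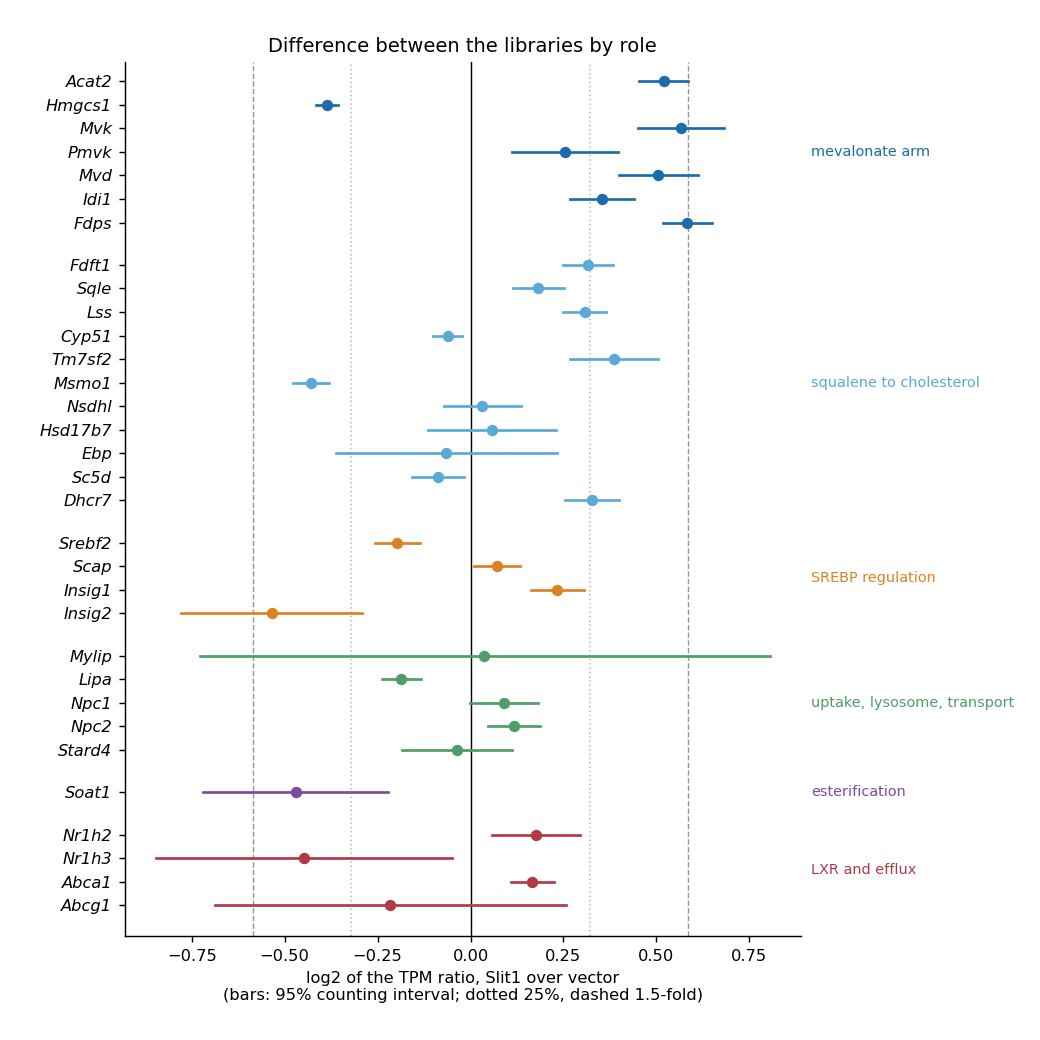
log2 of the TPM ratio (Slit1 over vector) of each gene, with bars for the 95% counting interval and lines at 25% and 1.5-fold, in pathway order and coloured by role. The synthesis enzymes lie mostly right of 0, with Hmgcs1 and Msmo1 to the left, and genes of the other roles lie on both sides.

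The summed level of the synthesis enzymes, taken in TPM only, moved little. By mean level Hmgcs1, Msmo1 and Cyp51, all below 0, were the top 3 of the 18, and Fdps, the highest by difference, was the fourth. The other enzymes below 0, Sc5d and Ebp, ranked 12 and 17. The 18 enzymes together reached 3332 TPM in vector against 3477 TPM in Slit1, a ratio of 1.04 (interval 1.03 to 1.05). Hmgcs1 and Msmo1 together measured 1261 and 953 TPM. The other 16 enzymes measured 2071 and 2524 TPM, a ratio of 1.22 (interval 1.203 to 1.235). That division was chosen after the values were seen.

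**Figure D3:**
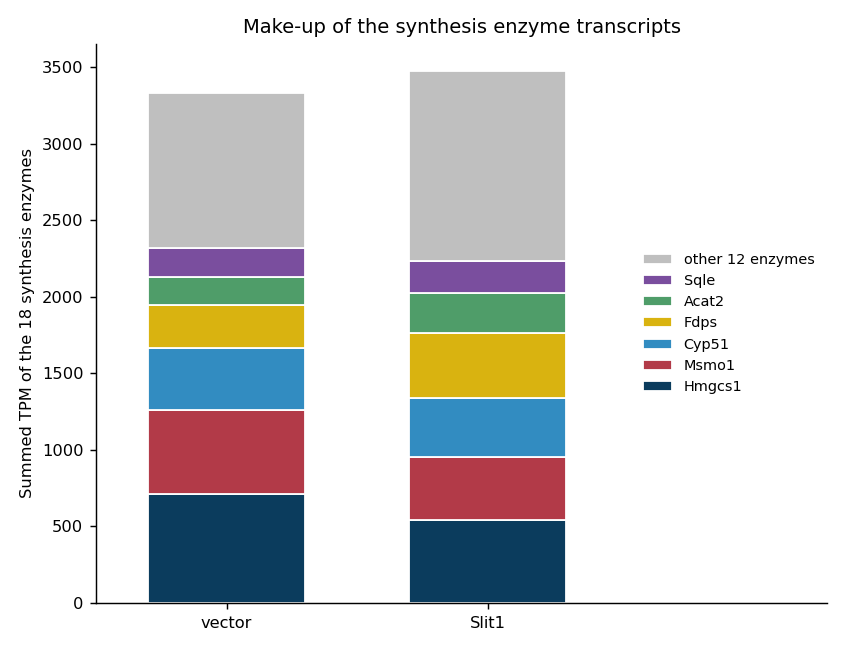
Stacked bars, starting at 0, of the TPM of the 18 synthesis enzymes in each library: the 6 most abundant by mean level are shown singly and the other 12 together. The bars reach 3332 and 3477 TPM, with smaller Hmgcs1 and Msmo1 segments and larger Fdps and Acat2 segments in Slit1.

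Promoter sequences are shown for the 4 highest synthesis enzymes and the 2 that were at least 20% lower, to set side by side genes of one pathway that differed in opposite directions. They are the 250 bases before the gene start in RefSeq (build GRCr8, which is not the build of the deposited table), read 5′ to 3′ on the strand of the gene. The windows lie at chr2:176804817-176805066 (minus strand) for Fdps, chr12:47819504-47819753 (minus strand) for Mvk, chr1:50100590-50100839 (plus strand) for Acat2, chr19:67414975-67415224 (minus strand) for Mvd, chr2:53382054-53382303 (plus strand) for Hmgcs1 and chr16:29746863-29747112 (plus strand) for Msmo1. Capitals mark the letters CCAAT, the core of the box bound by NF-Y, and CACNCCAC, a core resembling the sterol regulatory element, each on either strand.
Fdps: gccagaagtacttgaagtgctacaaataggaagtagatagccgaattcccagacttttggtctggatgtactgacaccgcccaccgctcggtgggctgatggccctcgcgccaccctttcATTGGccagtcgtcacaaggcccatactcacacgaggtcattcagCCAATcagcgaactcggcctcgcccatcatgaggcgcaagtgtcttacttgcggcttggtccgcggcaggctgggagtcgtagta
Mvk: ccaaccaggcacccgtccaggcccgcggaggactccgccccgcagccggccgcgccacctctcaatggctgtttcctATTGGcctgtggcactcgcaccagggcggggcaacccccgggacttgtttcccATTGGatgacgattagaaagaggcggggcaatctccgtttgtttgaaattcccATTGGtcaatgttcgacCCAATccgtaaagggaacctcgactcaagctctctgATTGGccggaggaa
Acat2: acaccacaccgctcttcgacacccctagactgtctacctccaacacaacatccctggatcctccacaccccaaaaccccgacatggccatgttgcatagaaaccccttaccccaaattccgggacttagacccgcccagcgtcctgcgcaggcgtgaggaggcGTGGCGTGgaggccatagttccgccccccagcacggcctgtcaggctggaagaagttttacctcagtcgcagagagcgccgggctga
Mvd: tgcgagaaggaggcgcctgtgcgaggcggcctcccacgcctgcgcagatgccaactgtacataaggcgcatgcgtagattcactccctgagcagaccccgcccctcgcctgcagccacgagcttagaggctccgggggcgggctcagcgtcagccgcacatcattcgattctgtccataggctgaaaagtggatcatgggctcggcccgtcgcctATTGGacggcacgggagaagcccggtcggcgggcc
Hmgcs1: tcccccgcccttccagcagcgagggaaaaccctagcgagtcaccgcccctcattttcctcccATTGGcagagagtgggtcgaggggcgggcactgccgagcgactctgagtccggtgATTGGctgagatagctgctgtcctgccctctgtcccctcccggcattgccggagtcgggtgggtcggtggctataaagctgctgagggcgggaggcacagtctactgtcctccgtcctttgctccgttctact
Msmo1: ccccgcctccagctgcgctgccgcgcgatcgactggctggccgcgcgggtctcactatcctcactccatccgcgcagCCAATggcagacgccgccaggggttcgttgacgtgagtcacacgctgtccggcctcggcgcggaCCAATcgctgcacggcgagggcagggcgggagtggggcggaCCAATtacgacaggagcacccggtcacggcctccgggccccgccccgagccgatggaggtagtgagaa

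Such a window was found for 27 of the 32 genes, those not found being Abcg1, Fdft1, Pmvk, Sqle and Stard4. CCAAT was present on either strand in 12 of 15 synthesis windows and in 7 of the 12 others, against 34.0% of all 33469 windows of this length. Fdps held 2 copies, Mvk 5, Mvd 1 and Acat2 0, while Hmgcs1 held 2 and Msmo1 3. The counts of the higher and the lower enzymes overlapped. These enzymes were picked by their own differences, and whether the box bears on the direction of a difference was not tested. The letters CACNCCAC were present in Acat2, Ebp and Insig1, 3 of 27 windows against 4.89% of all. Only these letters, with any base at N, were sought, so a sterol regulatory element spelled otherwise went unmarked. The GC box GGGCGG was present in 21 of 27 windows, against 30.5% of all. The palindrome TCACGTGA, in 0.657% of all windows, was in 0 of the 27. No matches to different motifs overlapped in these genes. The windows counted as all were not limited to the genes tested, so these shares are not those of the tested genes. A match is a description of letters and not a bound site.

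The 4 genes that control the pathway lay on both sides of 0, with a median log2 difference of -0.06. Srebf2, which encodes the transcription factor SREBP2, stood at 107.7 TPM in vector against 93.9 TPM in Slit1 (ratio 0.872, interval 0.836 to 0.909). Scap, the gene of its escort protein, measured 114 and 119 TPM (ratio 1.05, interval 1.006 to 1.096). Insig1, itself a target of SREBP2, measured 133 and 157 TPM (ratio 1.18, interval 1.12 to 1.24). Its paralog Insig2 (NCBI gene 288985) measured 17.3 and 11.9 TPM, 1.45-fold lower (interval 1.22 to 1.72), the lowest log2 difference of the 32 genes at -0.50. The ratio of Insig1 to Insig2 was 7.72 in vector and 13.2 in Slit1. The size of the Insig2 difference depended on length scaling: in CPM, which is not scaled for length, its log2 difference was -0.23. The gene length implied by the deposited FPKM and counts of Insig2 was 2057 bases in vector and 2431 bases in Slit1.

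Uptake, lysosomal release and transport was the only role of which no gene passed the smaller limit. The median log2 difference of these 5 genes was 0.02. No lipoprotein receptor is among them, so they do not show how the receptors of uptake differed. Lipa, the lysosomal acid lipase that frees cholesterol from esters, measured 229 and 201 TPM (ratio 0.879, interval 0.848 to 0.911). Npc2 and Npc1, which hand cholesterol out of the lysosome, measured 291 and 315 TPM (ratio 1.08, interval 1.03 to 1.14) and 41.9 and 44.6 TPM (interval 0.9996 to 1.13). Stard4, a carrier of sterol between membranes, measured 17.97 and 17.52 TPM (interval 0.880 to 1.08), and it was above 0 in CPM and FPKM. Mylip, a ubiquitin ligase that removes lipoprotein receptors, measured 1.15 and 1.18 TPM from 30 and 32 counts, so that its interval ran from 0.604 to 1.75.

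Soat1 was the single gene of esterification. The enzyme makes the cholesteryl esters stored in lipid droplets. Its level was 21.4 TPM in vector against 15.4 TPM in Slit1, 1.38-fold lower (interval 1.17 to 1.65), from 314 and 236 counts.

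The LXR and efflux genes also split, with 2 higher and 2 lower and a median of 0.004. Nr1h2, which encodes LXR-beta, measured 64.9 and 73.3 TPM (ratio 1.13, interval 1.04 to 1.23). Nr1h3, which encodes LXR-alpha, was scarcer at 8.52 and 6.25 TPM, 1.36-fold lower (interval 1.036 to 1.799), from 127 and 94 counts. The ratio of Nr1h2 to Nr1h3 was 7.62 in vector and 11.7 in Slit1. Abca1, an exporter of cholesterol to lipid-poor apolipoproteins and a target of LXR, measured 49.9 and 55.96 TPM (ratio 1.12, interval 1.08 to 1.17). Centred on the genes nearest in implied length, the log2 difference of Abca1 was 0.34 against 0.16, which passed the limit of 25%. Abcg1, an exporter to lipoprotein particles, measured 2.74 and 2.36 TPM (interval 0.620 to 1.19). The 3 genes outside synthesis that were at least 20% lower were Insig2, Soat1 and Nr1h3, with 307, 314 and 127 counts in vector.

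Counting error alone was exceeded by many of the 32 genes, as it was across the table. The interval of the TPM ratio lay wholly above 1 in 16 of them and wholly below 1 in 9, against 22.3% and 33.5% of all tested genes. These intervals narrow as counts grow, so abundant genes are called more often. Within synthesis 11 enzymes lay wholly above 1 and 4 wholly below.

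Further genes of the pathway were taken from a list of 46, of which 44 passed the floor. None was 1.5-fold different in TPM, and the median log2 difference of the 44 was 0.01. Of the 44, 5 were at least 25% higher, against 10.7% of all tested genes, and 5 at least 20% lower, against 17.9%. The 3 highest were Scarb1, Abca2 and Cyp46a1. Scarb1, a receptor that exchanges cholesterol with high-density lipoprotein, measured 64.9 and 95.95 TPM (ratio 1.48, interval 1.38 to 1.58). Abca2, a lysosomal transporter expressed in oligodendrocytes, measured 82.9 and 113 TPM (ratio 1.37), and Cyp46a1, which hydroxylates brain cholesterol, measured 11.9 and 15.5 TPM (ratio 1.30). The 3 lowest were Plin2, Erg28 and Arl4c. Plin2, a coat protein of lipid droplets, measured 63.1 and 46.0 TPM (1.37-fold lower). Erg28, a scaffold of sterol demethylation, measured 58.9 and 43.6 TPM (1.35-fold lower). Arl4c, a small GTPase induced by LXR, measured 57.5 and 43.2 TPM (1.33-fold lower). The 8 further genes of synthesis had a median of 0.14, and the 12 of SREBP processing and sterol-regulated degradation had a median of -0.13. Of the 5 further uptake receptors and adaptors, 1 was at least 25% higher, 1 at least 20% lower and 3 within these limits.

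**Figure D4:**
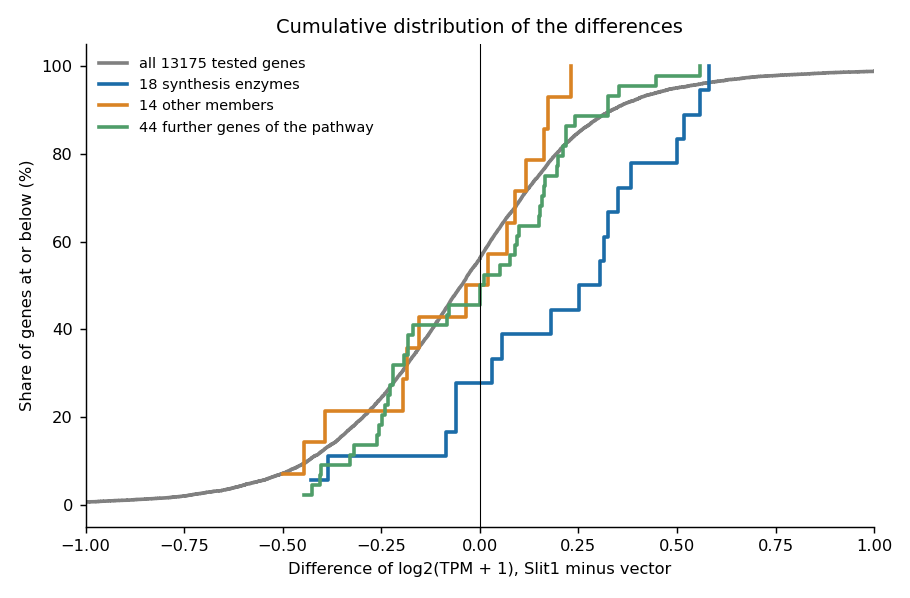
Share of genes (%) at or below each difference of log2(TPM + 1), Slit1 minus vector, for all 13175 tested genes, the 18 synthesis enzymes, the 14 other genes of the set and the 44 further genes of the pathway. The curve of the synthesis enzymes (median 0.28) lies to the right of the others over most of its range, and the other curves lie close to that of all genes.

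The choice of scale moved most values by a small common step. The median of all tested genes was -0.05 in TPM, -0.01 in FPKM and in CPM and 0.0004 with TMM factors. On each of these other scales, and in TPM centred on the median gene, 2 members reached 1.5-fold higher, Fdps and Mvk, against 3.29% of all tested genes in FPKM, 3.93% in CPM, 4.06% with TMM factors and 4.43% when centred. Their log2 differences were 0.62 and 0.59 in FPKM. Hmgcs1 and Msmo1 were lower in Slit1 under all 10 other settings, between -0.41 and -0.31 and between -0.45 and -0.37. Those settings include changes of floor, which could not move the value of a gene. A sign change was seen in 3 of the 32 genes: Ebp, Sc5d and Stard4.

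**Figure D5:**
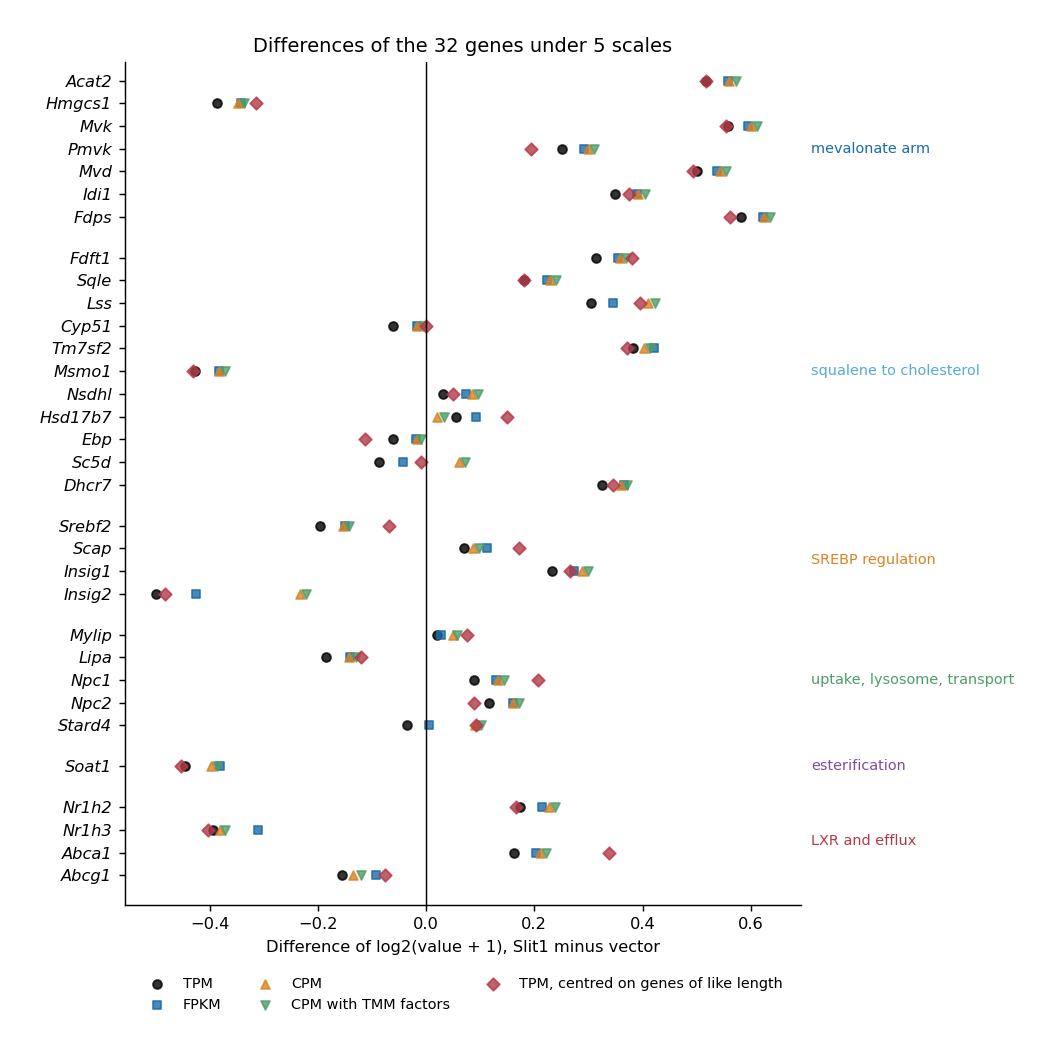
Difference of log2(value + 1), Slit1 minus vector, of each gene in TPM, FPKM, CPM, CPM with TMM factors, and TPM centred on genes of like length. The symbols of a gene mostly lie close together, and those of Insig2 spread from -0.50 in TPM to -0.22 with TMM factors.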

How the data were processed

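RNA sequencing of 2 rat OPC samples, 1 per group, was used. Per the file headers, the authors deposited FPKM, TPM and read counts for each gene. The deposited TPM sum to the same total in both libraries. The deposited counts are estimated counts, since only 26.1% of values in vector and 31.4% in Slit1 came within 0.01 of a whole number. The submitters' processing notes name the build mRatBN7.2. The sources used here do not give the aligner, counter, annotation, strand handling or filters. The number of value columns of other samples was 0.

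Symbols were matched exactly. Differences of log2(TPM + 1) and counting intervals from the counts rounded to whole numbers were computed with Python 3.11.15, pandas 2.3.3 and scipy 1.17.1, and TMM factors on the rounded counts with edgeR 4.0.16. The calculation was tested on simulated data. With 1 library per group no test was run. All 32 genes are named, and of the further list those at least 1.5-fold different and the 3 highest and 3 lowest. Members, lists and limits were chosen with earlier results of these data known. Alternatives were other scales, pseudocounts, floors and fold limits; centring each gene on the 1001 genes nearest in implied length or in mean TPM was chosen after seeing the data. A count of 0 allows up to 3 counts. Idi1, Npc1 and Nr1h3 overlap another measured gene (Wdr37, Rmc1 and Acp2) in the RefSeq table of GRCr8, and reads of such pairs may have been shared.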

Additional observations from a re-analysis of the deposited data

How the results depend on the processing

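No paired analysis was possible because each group had 1 library, and none could be left out. No member was 1.5-fold different in TPM, so none could reverse at that limit. Sc5d, whose counting interval in TPM lay wholly below 1, had a log2 difference of 0.06 in CPM and 0.07 with TMM factors. Of the alternatives, 292 of 318 values of single members moved by no more than the distance from the middle to either end of their log2 counting interval. The 292 include all values under other floors, which could not move, so part of this agreement was fixed in advance. Members higher by 1.5-fold or more, 0 in TPM, numbered 2 in CPM, in FPKM, with TMM factors and in TPM centred on the median gene, and the same 2 are synthesis enzymes. On these 4 scales 1 further gene of the pathway, Scarb1, was 1.5-fold higher, against 0 in TPM; the number was 2 when centred on genes nearest in implied length, and 1, Ch25h, with no floor. Further genes at least 20% lower numbered 3 in CPM, with TMM factors and when centred on length, against 5, and those 25% higher numbered 2 with a pseudocount of 5. Taking in place of 1.5-fold any counting interval wholly beyond 1 gave 16 members higher and 9 lower, and 11 and 4 synthesis enzymes. Centred on genes nearest in implied length, the median of the squalene to cholesterol arm was 0.15 against 0.06 and that of SREBP regulation was 0.052 against -0.063, and 1 synthesis enzyme was 20% lower against 2. Centred on genes nearest in mean TPM, the median of the squalene arm was 0.13. The mevalonate median stayed between 0.48 and 0.55, and that of all 18 synthesis enzymes between 0.27 and 0.34, under the 10 other settings. The cause of these shifts was not tested. Summed levels were taken in TPM only and were not put through the other settings. Depth limited Mylip, Abcg1 and Nr1h3.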

Other observations

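Of the 46 further genes of the pathway 2 lay under the floor of 1 TPM. Ch25h, which makes an oxysterol that activates LXR and holds back SREBP processing, stood at 0.27 TPM in vector against 1.40 TPM in Slit1, from 3 and 16 counts (ratio 5.19, counting interval 1.48 to 27.8). Soat2, the esterifying enzyme of liver and gut, had 0 and 2.24 counts, both under the limit of 3 that a count of 0 allows.

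The gene length implied by the deposited FPKM and counts differed by 5% or more between the libraries in 4 of the 31 members with at least 50 counts in each, against 10.4% of 11975 such genes. It was 18.2% longer in Slit1 for Insig2, 7.56% longer for Sc5d and 6.09% longer for Stard4. For Hsd17b7 it fell by 5.50%. In Sc5d and Stard4 the sign of the difference was negative in TPM and positive in CPM, at -0.09 and 0.06 for Sc5d and at -0.03 and 0.09 for Stard4. The sources used here do not say which transcripts were counted.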
